A study of Mus musculus with 9 samples.

Results

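The receptors through which plasma cells receive survival and niche signals were followed at the transcript level in splenic plasma cells of 3 mouse genotypes. The 10 genes were taken by symbol from a table of 46958 genes: Tnfrsf17, Tnfrsf13b and Tnfrsf13c, which encode the receptors for the cytokines BAFF and APRIL (BCMA, TACI and the BAFF receptor); Il6ra and Il6st, which encode the ligand-binding and the signalling chain (gp130) of the interleukin-6 receptor; Cd28, a costimulatory receptor; and Sdc1 (CD138), Cd93, Slamf7 and Cd38, which encode surface proteins of plasma cells. All 10 were found, and all 10 passed the filter on low counts, with between 230 and 14582 reads in each library. Plasma cells were isolated with beads against CD138 from spleens of 3-month-old, non-immunized mice of a mixed C57/BL6x129/SVxBALB/c background. Each of the 9 libraries came from the spleen of 1 mouse, with 3 mice per genotype. The genotypes were wild type (WT), DH-LMP2A, and kFRA, which the labels tie to light chain deposition disease (LCDD), a disorder in which a monoclonal immunoglobulin light chain is deposited in tissues. As background from work on these lines, LMP2A is a viral protein that gives B cells a signal in place of the antigen receptor, and kFRA denotes a light chain from a patient with LCDD. The labels say no more of the alleles, nor whether the kFRA mice also carry the DH-LMP2A allele. The transcript of the mu heavy chain, Ighm, was low in each of those genotypes, at 9365 to 10030 CPM in DH-LMP2A and 6981 to 10470 CPM in kFRA, against 154300 to 184300 CPM in WT. CPM are reads per gene scaled to the effective size of the library.

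Long-lived plasma cells depend on signals from their surroundings. APRIL and BAFF, made by myeloid and stromal cells, bind BCMA and TACI, and BCMA signalling sustains the survival protein MCL1, while the BAFF receptor is mainly a receptor of mature B cells. Interleukin-6 acts through IL-6Rα and gp130 on the kinase JAK1 and the transcription factor STAT3, and CD28 on plasma cells binds CD80 and CD86 on neighbouring cells. CD138 is a heparan sulfate proteoglycan that can hold APRIL at the cell surface, CD93 has been tied to the persistence of plasma cells in the bone marrow, SLAMF7 is a homotypic receptor of the SLAM family, and CD38 is an enzyme that consumes NAD.

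The members whose levels separated or failed to separate the genotypes are introduced by the sequence before their start sites, since Tnfrsf17 and Il6st moved in opposite directions while Tnfrsf13b and Tnfrsf13c, the nearest relatives of Tnfrsf17 in function, did not pass the test against WT. RefSeq promoter entries were found for 8 of the 10 members on GRCm38.p6. The 250 bases before the start site are shown, which lie at chr16:11313559-11313808 on the plus strand for Tnfrsf17, chr11:61126505-61126754 on the plus strand for Tnfrsf13b, chr15:82224381-82224630 on the minus strand for Tnfrsf13c, and chr13:112463820-112464069 on the plus strand for Il6st. Capitals mark a match to a searched motif on either strand.
Tnfrsf17: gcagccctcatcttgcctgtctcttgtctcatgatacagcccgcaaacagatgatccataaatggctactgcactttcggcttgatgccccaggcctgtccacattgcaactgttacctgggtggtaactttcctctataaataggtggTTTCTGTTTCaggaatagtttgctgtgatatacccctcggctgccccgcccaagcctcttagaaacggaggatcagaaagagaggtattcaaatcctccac
Tnfrsf13b: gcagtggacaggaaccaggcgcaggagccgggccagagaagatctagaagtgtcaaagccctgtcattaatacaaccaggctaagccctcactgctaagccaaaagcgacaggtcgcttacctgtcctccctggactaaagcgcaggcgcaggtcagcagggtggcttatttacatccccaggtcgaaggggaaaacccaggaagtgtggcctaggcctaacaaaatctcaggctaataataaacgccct
Tnfrsf13c: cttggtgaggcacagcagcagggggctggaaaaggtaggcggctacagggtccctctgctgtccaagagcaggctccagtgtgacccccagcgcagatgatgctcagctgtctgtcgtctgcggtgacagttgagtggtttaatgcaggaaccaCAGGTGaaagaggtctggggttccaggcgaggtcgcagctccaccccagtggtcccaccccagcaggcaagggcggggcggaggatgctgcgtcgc
Il6st: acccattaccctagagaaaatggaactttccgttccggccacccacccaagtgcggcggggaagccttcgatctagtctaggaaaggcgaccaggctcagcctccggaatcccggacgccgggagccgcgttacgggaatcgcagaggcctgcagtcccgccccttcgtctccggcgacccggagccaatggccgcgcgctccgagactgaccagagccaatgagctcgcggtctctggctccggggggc

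The letters searched were TTCNNNGAA (STAT), AGNGAAAG (PRDM1), CAGGTG (E-box) and TGACGTG (unfolded protein response element), together with the interferon-stimulated response element (ISRE) and the NF-kB motif. ISRE and PRDM1 matches can overlap each other. The Tnfrsf17 window held an ISRE match, 101 to 92 bases before the start, which 2.98% of 32851 promoter windows of this length hold. The Tnfrsf13c window held an E-box match 96 to 91 bases before the start, a match found in 17.2% of windows. In the Tnfrsf13b and Il6st windows none of the 6 motifs was matched, which says only that these letters are not in these windows. Among all windows, the STAT motif was held by 7.02%, the PRDM1 motif by 7.3%, the unfolded protein response element by 1.65% and the NF-kB motif by 3.9%.

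Total counts were 15449026 to 21558128 per library, and a floor of 3 counts lies at 0.139 to 0.194 CPM. The submitters state a purity of the selected cells that is not complete. The plasma cell identity of the fraction was visible in all 9 libraries: each of the 12 plasma cell markers was detected, at a summed 20190 to 25500 CPM in WT, compared with 35950 to 48860 CPM in DH-LMP2A and 21950 to 34050 CPM in kFRA. This list includes Sdc1 and Tnfrsf17. Most of each sum came from Jchain alone, at 15680 to 19910 CPM in WT, 27010 to 38650 in DH-LMP2A and 14680 to 25430 in kFRA. Markers of other cells were present as well. Macrophage and monocyte markers summed to 3570 to 5848 CPM in WT, 3160 to 5359 CPM in DH-LMP2A and 5498 to 6116 CPM in kFRA. Within this list Ly6c2 rose from 368.2 ± 142.3 CPM in WT to 2223 ± 154.7 in DH-LMP2A and 3331 ± 1019 in kFRA (SD, n = 3 each, edgeR adjusted p = 0.00196 and 0.000469). Csf1r, Adgre1, Cd68, Vcam1, C1qa and C1qb had lower means than in WT in each, with log2 differences of −1.26 to −0.56 that did not pass in edgeR. The remaining marker of this list, Ccr2, did not pass either. It was at 1.418, 1.683 and 0.7006 CPM in WT, 1.142, 1.345 and 3.661 in DH-LMP2A, and 0.342, 0.9515 and 0.69 in kFRA. B cell markers summed to 477.2 to 1051 CPM over all libraries. Other marker sums that differed between genotypes were those of neutrophils (276.7 to 905.5 CPM in WT, 22.15 to 250.5 in DH-LMP2A, 9.3 to 26.85 in kFRA), NK cells (25.17 to 39.74, 14.38 to 26.18 and 5.47 to 6.52 CPM) and dendritic cells (147.9 to 207.9, 67.96 to 103.5 and 115.4 to 148.8 CPM). Erythroid markers ran from 59.56 to 322.6 CPM in WT, compared with 2314 to 12150 in DH-LMP2A and 1046 to 2473 in kFRA, and proliferation markers from 245.2 to 761.6 CPM over all libraries. An alternative fit, called the marker covariate here, added the mean log2 CPM of the B cell, T cell, macrophage and erythroid markers as a term, and another, the Xist covariate, the log2 CPM of Xist. The part of neutrophils, NK cells and dendritic cells in the members' values was not tested. Some libraries stood apart. In kFRA replicate 2 the proliferation gene Mki67 was at 433.4 CPM, against 115.3 and 122.4 CPM in kFRA replicates 1 and 3, and in DH-LMP2A replicate 3 the erythroid markers summed to 12150 CPM, against 2314 and 2412 CPM in the others. Xist, transcribed in female cells, was high (494.7 to 923.6 CPM) in 5 libraries: kFRA replicate 2, WT replicates 1 and 3, and the first and second of DH-LMP2A. It was at most 4.49 CPM in the other 4. In such bulk samples, fewer cells of a type and less RNA per cell cannot be told apart.

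Against WT, 4 of the 10 receptor genes passed the test in kFRA (2 higher, 2 lower) and 4 in DH-LMP2A (3 higher, 1 lower). Between kFRA and DH-LMP2A, 2 members passed, and each was lower in kFRA. The threshold was a Benjamini-Hochberg adjusted p of 0.05 in edgeR's quasi-likelihood test over all 14199 genes, in which 17.8%, 12.4% and 5.02% of all genes passed in the same 3 comparisons. Of all genes 6.68% were higher and 11.1% lower in kFRA than in WT, 5.07% higher and 7.3% lower in DH-LMP2A than in WT, and 1.73% higher and 3.3% lower in kFRA than in DH-LMP2A. The libraries of the 2 genotypes did not overlap for 4, 4 and 3 of the 10 members, which compares with 34.3% (14.2% higher, 20.2% lower), 36.6% (17.5% and 19.1%) and 25.6% (11.6% and 13.9%) of all genes. The median log2 fold change of the 10 genes was −0.005, 0.056 and −0.253 in that order, against −0.038, −0.008 and −0.005 over all genes. Tnfrsf17 fell in each of the other genotypes against WT, while Il6st and Slamf7 rose in each. Cd38 passed in the 2 comparisons that involve kFRA, and Cd28 in the 2 that involve DH-LMP2A. The comparisons with WT use the same WT libraries, so their values are set side by side only.

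**Figure D1:**
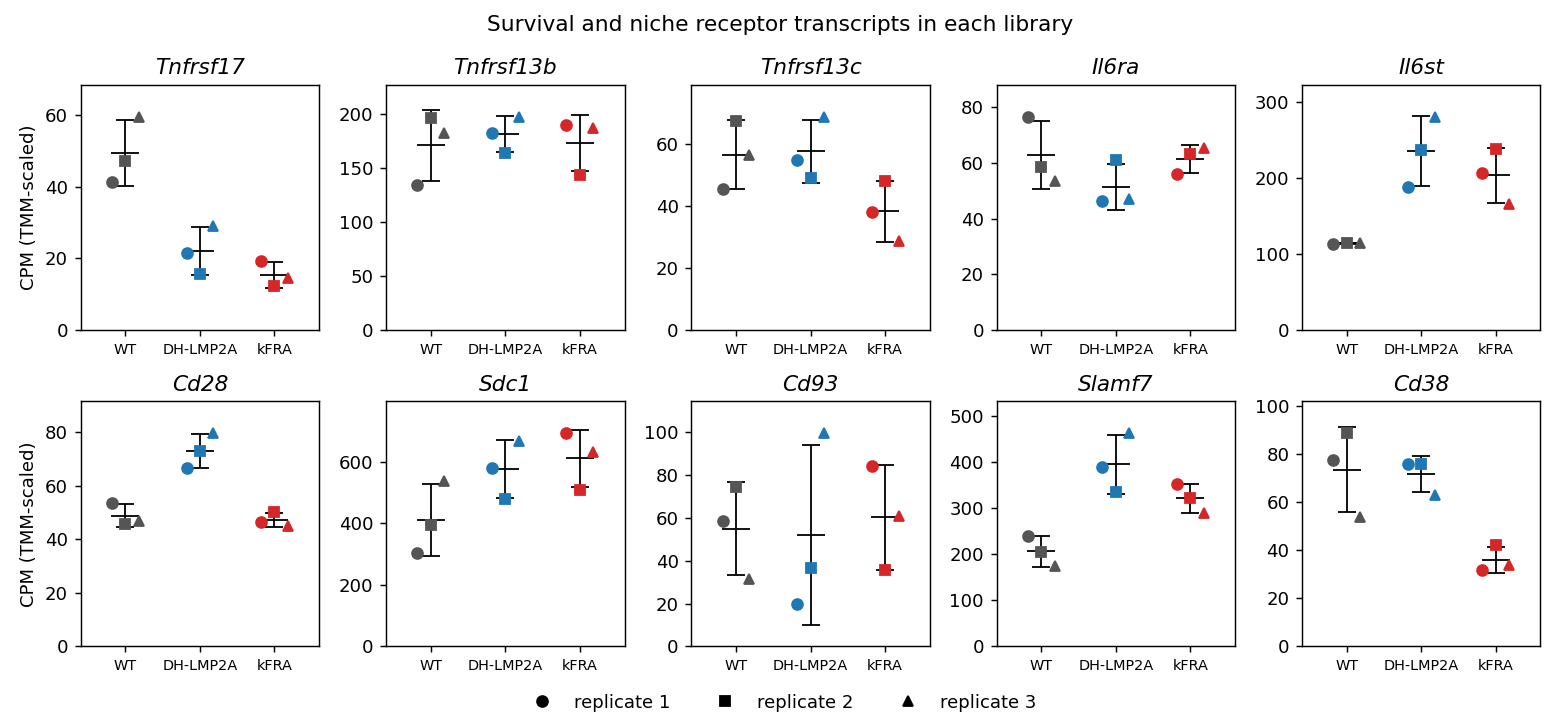
Level of each of the 10 genes (CPM after TMM scaling, linear axes from 0) in every library by genotype; symbols mark the replicate number, and bars the mean and SD of 3 libraries. Tnfrsf17 is highest in the 3 WT libraries, Il6st and Slamf7 are lowest there, and Cd38 is lowest in the 3 kFRA libraries.

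Of the BAFF and APRIL receptors, Tnfrsf17 (chromosome 16, 11313812 to 11320074, GRCm38), the gene of BCMA, differed most from WT. It was at 41.33, 47.18 and 59.48 CPM in WT replicates 1 to 3. The DH-LMP2A libraries had 21.37, 15.63 and 29.01 CPM, and the kFRA libraries 19.22, 12.37 and 14.43 CPM. Every WT library lay above every library of the other genotypes, and the ranges of DH-LMP2A and kFRA overlapped. Tnfrsf17 was 3.22-fold lower in kFRA than in WT (log2 fold change −1.69 with SE 0.256, edgeR adjusted p = 0.00253) and 2.24-fold lower in DH-LMP2A (−1.16, SE 0.251, edgeR adjusted p = 0.0159). Between kFRA and DH-LMP2A the log2 difference was −0.52 (95% interval −1.09 to 0.04, edgeR adjusted p = 0.253). The kFRA call held whichever of the 6 libraries was left out, and that in DH-LMP2A was lost without DH-LMP2A replicate 1 (edgeR adjusted p = 0.0647) or WT replicate 3 (0.0517).

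Tnfrsf13b (chromosome 11, 61126755 to 61149372), the gene of TACI, showed no such separation. Its levels were 134.1, 196.2 and 182.8 CPM in WT, compared with 182.3, 164.1 and 197.5 CPM in DH-LMP2A and 189.7, 143.6 and 187.6 CPM in kFRA. All 3 ranges overlapped. The log2 difference from WT was 0.02 in kFRA (95% interval −0.38 to 0.43) and 0.08 in DH-LMP2A (95% interval −0.32 to 0.49), neither past the threshold, and the first changed sign with the Xist covariate (−0.05).

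Tnfrsf13c (chromosome 15, 82221744 to 82224339), the gene of the BAFF receptor, was at 45.48, 67.68 and 56.68 CPM in WT and at 55.05, 49.13 and 68.87 CPM in DH-LMP2A. In kFRA it was at 38.1, 48.24 and 28.6 CPM, all below the DH-LMP2A range, with kFRA replicate 2 inside the WT range. The log2 difference of kFRA was −0.56 from WT (95% interval −1.06 to −0.06, edgeR adjusted p = 0.108) and −0.59 from DH-LMP2A (95% interval −1.09 to −0.09, edgeR adjusted p = 0.168). Without kFRA replicate 2 each of these passed, at edgeR adjusted p = 0.0336 and 0.043. B cells are where this receptor is best known. All 8 B cell markers were detected in every genotype, and their sum was 477.2 to 600.3 CPM in kFRA, at the lower edge of WT (596.2 to 858.2 CPM) and below DH-LMP2A (678.7 to 1051 CPM). Of the 8, 5 passed as lower in kFRA than in WT and 2 as lower than in DH-LMP2A. Their part in the Tnfrsf13c values was not tested beyond the fit with the marker covariate, in which the log2 difference was −0.54 from WT and −0.39 from DH-LMP2A, in place of −0.56 and −0.59.

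Counted per kilobase of exon length, the make-up of the 3 receptors differed between WT and the other genotypes. Tnfrsf17 made up 42.07%, 36.04% and 44.09% of their summed level in WT, compared with 22.26%, 18.92% and 25.54% in DH-LMP2A and 21.56%, 16.91% and 18.06% in kFRA. The mean share was 40.73% ± 4.19 in WT, against 22.24% ± 3.31 in DH-LMP2A and 18.84% ± 2.42 in kFRA (SD over 3 libraries). WT did not overlap with the others, and the exact 2-sided permutation test gave p = 0.1 for each, the smallest p that 3 against 3 libraries allow (0.12 after adjustment over 6 such tests). DH-LMP2A and kFRA overlapped (exact permutation test, p = 0.2). The share of Tnfrsf13b was 40.41% ± 2.31 in WT, compared with 53.86% ± 3.6 in DH-LMP2A and 61.69% ± 5.54 in kFRA (SD, n = 3 each), so that TACI and BCMA transcripts were level in WT and TACI transcripts led in the others. A share within a library does not depend on how libraries are scaled, but it rests on the annotated gene lengths. On undivided counts the difference of the Tnfrsf17 share from WT was −11.23 percentage points in kFRA and −9.62 in DH-LMP2A, in place of −21.89 and −18.5.

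**Figure D2:**
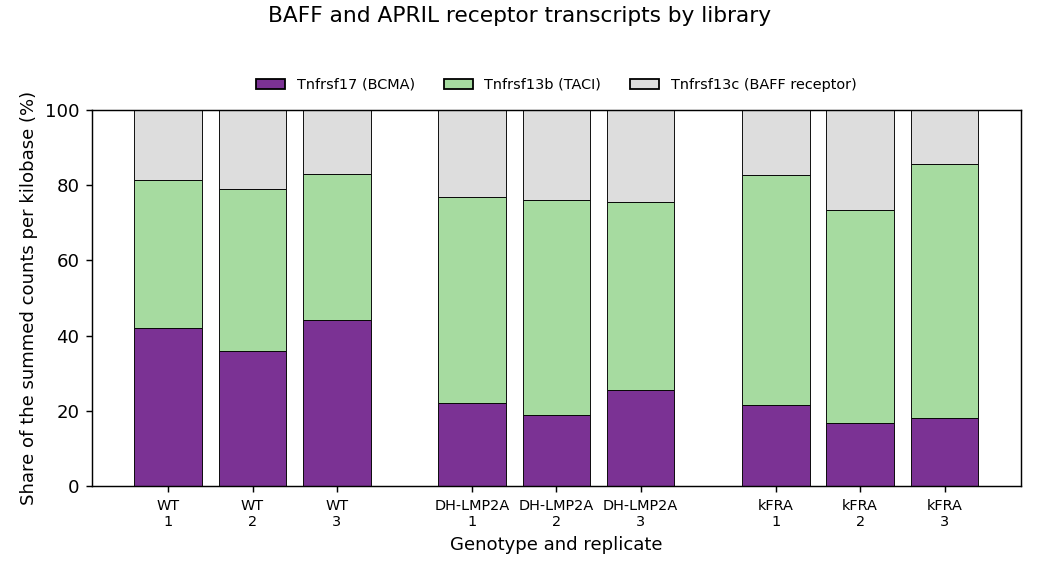
Share of Tnfrsf17, Tnfrsf13b and Tnfrsf13c in the sum of their counts per kilobase of exon length (percent, stacked to 100), one bar per library. The Tnfrsf17 part is 36.04% to 44.09% in the WT libraries and 16.91% to 25.54% in the 6 libraries of the other genotypes.

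The chains of the interleukin-6 receptor differed from each other. Il6st (chromosome 13, 112464070 to 112510086), the gene of gp130, was at 113.1, 114.4 and 114.6 CPM in WT, a spread of under 2 CPM. It was at 188.6, 237.1 and 280.3 CPM in DH-LMP2A and at 206, 237.9 and 166.2 CPM in kFRA. All 6 of these libraries lay above WT, and the ranges of DH-LMP2A and kFRA overlapped. Il6st was 2.06-fold higher in DH-LMP2A than in WT (log2 fold change 1.05 with SE 0.182, edgeR adjusted p = 0.00599) and 1.78-fold higher in kFRA (0.83, SE 0.182, edgeR adjusted p = 0.0141). The kFRA call was lost without kFRA replicate 1 (edgeR adjusted p = 0.051) or WT replicate 2 (0.0541), with fold changes of nearly the same size.

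Il6ra (chromosome 3, 89864059 to 89913196) was at 76.53, 58.61 and 53.43 CPM in WT, compared with 46.46, 61.01 and 46.86 CPM in DH-LMP2A and 55.88, 63.23 and 65.3 CPM in kFRA, with overlap between all 3 genotypes. The log2 difference from WT was −0.29 in DH-LMP2A (95% interval −0.67 to 0.09) and −0.03 in kFRA (95% interval −0.41 to 0.35, with a change of sign under several scalings). Neither passed. The log2 ratio of Il6ra to Il6st per kilobase was −0.52 ± 0.279 in WT, compared with −1.83 ± 0.343 in DH-LMP2A and −1.35 ± 0.318 in kFRA (SD, n = 3 each). The single libraries ran from −0.74 to −0.20 in WT, from −2.22 to −1.6 in DH-LMP2A, and, in kFRA, from −1.55 to −0.99. No pair of genotypes overlapped, and the exact 2-sided permutation test gave p = 0.1 for all 3 pairs, the smallest value possible (0.12 adjusted). Gm42809 overlaps an exon of Il6ra on the opposite strand. Its own count was at most 7 in a library, and whether counting used the strand is not given in the sources used here.

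Cd28 (chromosome 1, 60716800 to 60773359) was higher in DH-LMP2A than in each of the other genotypes. It was at 66.72, 72.84 and 79.49 CPM there, against 53.58, 45.55 and 46.94 CPM in WT and 46.44, 50.05 and 45.04 CPM in kFRA. All DH-LMP2A libraries lay above all others, and WT and kFRA overlapped. Cd28 was 1.5-fold higher in DH-LMP2A than in WT (log2 fold change 0.58 with SE 0.12, edgeR adjusted p = 0.0128) and 1.55-fold lower in kFRA than in DH-LMP2A (−0.63, SE 0.12, edgeR adjusted p = 0.0174). Between kFRA and WT the log2 difference was −0.05 (95% interval −0.32 to 0.23), and its sign turned when libraries were scaled by size alone. T cells also express Cd28. Their defining genes Cd3e and Cd3d were at 1.01 to 5.49 CPM and 1.05 to 6.59 CPM, the highest values being in DH-LMP2A replicate 3. All 8 T cell markers were detected in each genotype, at a summed 42.99 to 95.82 CPM in WT, compared with 38.42 to 75.55 CPM in DH-LMP2A and 32.56 to 52.5 CPM in kFRA, and the share of Cd4 in these sums varied (83.36 of 95.82 CPM in WT replicate 1, 19.22 of 75.55 CPM in DH-LMP2A replicate 3). The median log2 fold change of the 8 markers was 0.682 in DH-LMP2A against WT, −0.557 in kFRA against DH-LMP2A and −0.027 in kFRA against WT, the first and second in the direction of Cd28. None of the 8 passed in any comparison by edgeR (0 at an unadjusted p under 0.05 and 0 by the DESeq2 Wald test), and the part of T cells in the Cd28 values was not tested. Without DH-LMP2A replicate 3 Cd28 still passed against WT, while the call against WT was lost without WT replicate 2 (log2 fold change 0.54, edgeR adjusted p = 0.0666) and with the marker covariate (0.54, edgeR adjusted p = 0.0744). The call of kFRA against DH-LMP2A was lost with the marker covariate (−0.59, edgeR adjusted p = 0.108) and with library size alone (−0.75, edgeR adjusted p = 0.083). Of the 6 fits of kFRA against DH-LMP2A that left out a library, Cd28 passed in 1, the fit without kFRA replicate 2 (edgeR adjusted p = 0.0114). In the other 5 (without kFRA replicate 1 or 3, or DH-LMP2A replicate 1, 2 or 3) the adjusted p rose to between 0.0529 and 0.0879, with log2 fold changes of −0.64 to −0.53.

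Cd38 (chromosome 5, 43868553 to 43912375) was the member that set kFRA apart. It was at 77.69, 88.55 and 54.01 CPM in WT and 75.86, 76.04 and 62.83 CPM in DH-LMP2A, which overlapped. In kFRA it was at 31.94, 42.01 and 33.81 CPM, below every other library. Cd38 was 2.04-fold lower in kFRA than in WT (log2 fold change −1.03 with SE 0.196, edgeR adjusted p = 0.00748) and 1.99-fold lower than in DH-LMP2A (−0.99, SE 0.196, edgeR adjusted p = 0.0203). DH-LMP2A and WT differed by −0.04 on the log2 scale (95% interval −0.47 to 0.40), a sign that turned with scaling by library size alone. Cd38 is also made by B cells, whose summed markers in kFRA lay below DH-LMP2A and at the lower edge of WT, and their own part in the value was not tested. With the marker covariate, which mixes them with other cells, the difference from WT passed and that from DH-LMP2A did not (log2 fold change −1.01, edgeR adjusted p = 0.0773). Against WT the call held whichever of the 6 libraries was left out and was lost with scaling by library size alone (edgeR adjusted p = 0.0763). Against DH-LMP2A it passed in 2 of the 6, those without DH-LMP2A replicate 3 or kFRA replicate 2, the adjusted p being at most 0.105 in the others (without kFRA replicate 1 or 3, or DH-LMP2A replicate 1 or 2).

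Slamf7 (chromosome 1, 171632403 to 171653035) was lowest in WT, at 239.3, 205.4 and 173.8 CPM. It was at 388.6, 334.2 and 462.4 CPM in DH-LMP2A and at 353.7, 322 and 290.4 CPM in kFRA, so that WT lay below both without overlap. Slamf7 was 1.92-fold higher in DH-LMP2A than in WT (log2 fold change 0.94 with SE 0.179, edgeR adjusted p = 0.0092) and 1.56-fold higher in kFRA (0.64, SE 0.179, edgeR adjusted p = 0.0365). The DH-LMP2A call held whichever of the 6 libraries was left out. The kFRA call was lost in 4 of 6, without kFRA replicate 1 (edgeR adjusted p = 0.129), kFRA replicate 3 (0.0553), WT replicate 2 (0.109) or WT replicate 3 (0.0881), and with the marker covariate (0.0539) or the Xist covariate (0.0564). With these covariates the log2 fold change was 0.64 and 0.62, nearly the same as without them. Neither covariate holds the plasma cell markers, whose median log2 fold change against WT was 0.464 in DH-LMP2A and 0.336 in kFRA. The part of plasma cell content in the Slamf7 values was not tested. Gm37787, with 4 to 13 counts per library, overlaps an exon of Slamf7 on the opposite strand.

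Sdc1 (chromosome 12, 8771323 to 8793715) encodes CD138, the protein by which the cells were selected, so its level describes the fraction. It was at 302.2, 394 and 536.7 CPM in WT, compared with 581.5, 478.8 and 667.3 CPM in DH-LMP2A and 692.5, 509.2 and 632.1 CPM in kFRA. WT replicate 3 lay within the range of each of the others. The log2 difference from WT was 0.57 in kFRA (95% interval 0.04 to 1.11, edgeR adjusted p = 0.12) and 0.49 in DH-LMP2A (95% interval −0.05 to 1.02, edgeR adjusted p = 0.229). The kFRA difference passed without kFRA replicate 2 (edgeR adjusted p = 0.0486) or WT replicate 3 (0.0457). Each difference passed when libraries were scaled by size alone (edgeR adjusted p = 0.0144 and 0.0124). That scaling also moved the median log2 fold change of all genes, from −0.038 to 0.174 in kFRA and from −0.008 to 0.334 in DH-LMP2A.

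**Figure D3:**
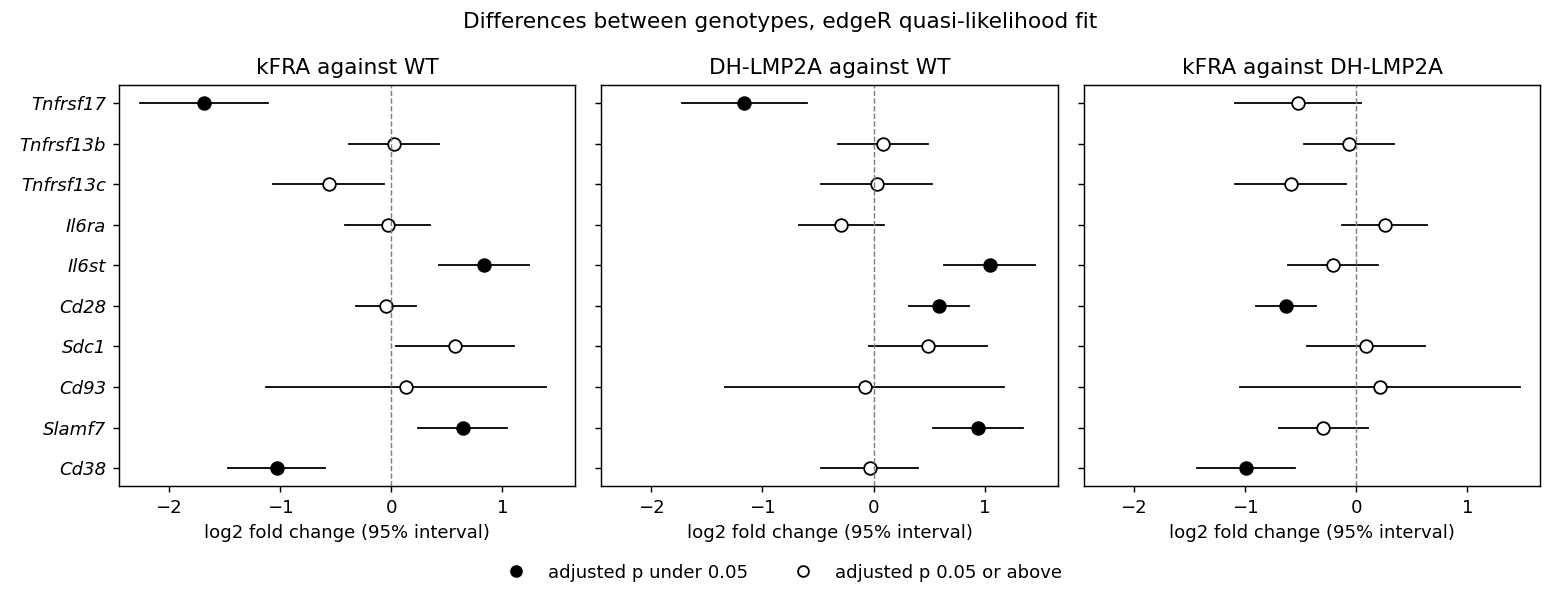
Log2 fold change of each of the 10 genes in the 3 comparisons with its 95% interval (edgeR quasi-likelihood fit over all genes; filled circles, adjusted p under 0.05). Tnfrsf17 lies left of 0 and Il6st and Slamf7 right of 0 against WT, at −1.69, 0.83 and 0.64 in kFRA, and Cd93 has the widest intervals.

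Cd93 (chromosome 2, 148436640 to 148443563) varied most among replicates, with a coefficient of variation of 80.9% in DH-LMP2A, 40.4% in kFRA and 39.4% in WT. It was at 58.5, 74.42 and 31.65 CPM in WT, compared with 19.72, 36.56 and 99.31 CPM in DH-LMP2A and 84.27, 35.63 and 60.59 CPM in kFRA. No genotype stood apart, and the log2 difference from WT was 0.13 in kFRA (95% interval −1.13 to 1.39) and −0.08 in DH-LMP2A (95% interval −1.34 to 1.17), with signs that turned under several alternatives. Cd93 was lower in the libraries with high Xist than in those with low Xist within each genotype, with no order by the Xist level itself in WT. In the 5 libraries with high Xist, Cd93 was at 19.72 to 58.5 CPM, and in the 4 with low Xist at 60.59 to 99.31 CPM. Within each genotype Mki67 was also higher in the libraries with high Xist. It was at 469.4 and 447 against 312.7 CPM in DH-LMP2A, and at 433.4 against 115.3 and 122.4 CPM in kFRA. In WT it was at 283.3 and 257.7 against 218.5 CPM. Sex and proliferation therefore cannot be told apart here, and the part of proliferation in the Cd93 values was not tested. In a fit with log2 CPM of Xist beside the genotypes, the Cd93 slope over the whole Xist range of 10.68 log2 units came to −1.4 (SE 0.39) and did not pass (edgeR adjusted p = 0.606). The slope was read after the values had been seen. Of all 14199 genes 7 passed in this fit (0.0493%). Among the 10 members edgeR passed 0 after adjustment and 2 at an unadjusted p under 0.05, Cd93 and Tnfrsf13b, and no other tool was run on this slope. The sum of endothelial and stromal markers, another source of Cd93, was 16.94 to 38.76 CPM in WT, compared with 9.43 to 30.9 in DH-LMP2A and 10.61 to 15.46 in kFRA, where 1 of the 8 (Emcn) was at 0, and their part and that of myeloid cells were not tested.

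**Figure D4:**
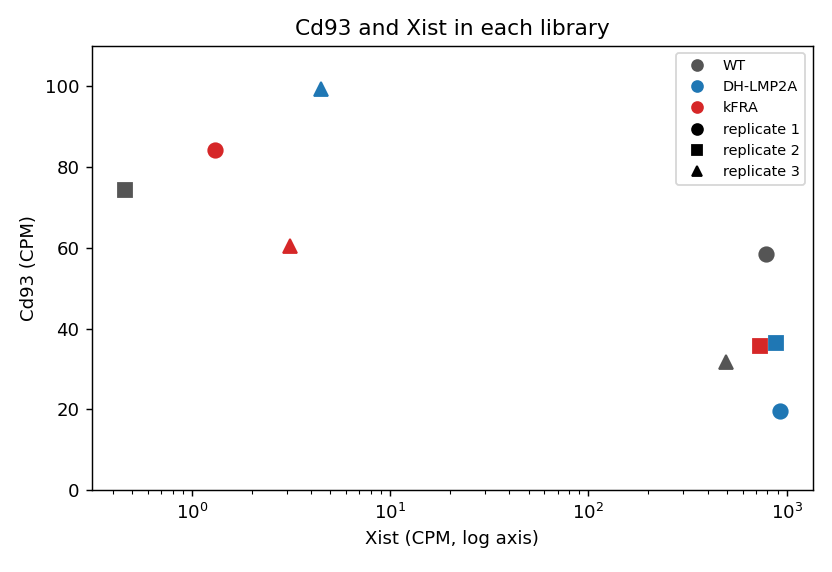
Cd93 (CPM, linear axis) against Xist (CPM, log axis) in the 9 libraries; colours mark the genotype and symbols the replicate number. The 4 libraries with Xist at most 4.49 CPM have 60.59 to 99.31 CPM of Cd93, and the other 5 have 19.72 to 58.5 CPM.

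Compared per kilobase of exon length, Sdc1 was the highest of the 10 in every genotype, at 107.9 ± 31 CPM per kilobase in WT, compared with 151.2 ± 24.8 in DH-LMP2A and 160.5 ± 24.5 in kFRA (SD, n = 3 each). In WT it was followed by Tnfrsf17 at 60.53 ± 11.4 and Tnfrsf13b at 60.3 ± 11.5 CPM per kilobase, whose libraries overlapped, and then by Slamf7 at 45.04 ± 7.15 (SD, n = 3 each). In DH-LMP2A Slamf7 took the second place at 86.31 ± 14 and Tnfrsf13b the third at 63.93 ± 5.89, while Tnfrsf17 took place 5 at 27 ± 8.24 CPM per kilobase, overlapping with Tnfrsf13c and Il6st. In kFRA these genes came in the same order, Slamf7 and Tnfrsf13b overlapping, with Tnfrsf17 at 18.82 ± 4.31 next to Tnfrsf13c at 19 ± 4.87 and Il6st at 18.32 ± 3.24, and the libraries of these 3 overlapped. Il6ra was the lowest member in each genotype, at 5.95 to 7.27 CPM per kilobase on average, and overlapped with the gene next to it.

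Over the 9 libraries, the genes whose log2 CPM followed a member most closely were named among 9632 candidates, with the genotype differences included in the measure. For Tnfrsf17 these were Gimap4 and Ttc38 (Pearson's r = 0.973 each, n = 9) and Mbd2 (0.963). For Il6st they were Zfp952 (0.974), Rabgap1l (0.97) and Rras2 (0.967). Cd38 was followed by Fgfr1op2 (0.977), Nf1 (0.972) and Osbpl9 (0.967), and Slamf7 by Slc30a4 (0.959), Gm14584 (0.958) and Kit (0.952). With so many candidates and 9 points that share genotype, values this high are a description only.

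The genes around the receptors were taken from lists, and 107 of them were tested. In kFRA against WT 25 passed, 3 higher and 22 lower, and in DH-LMP2A against WT 17 passed, 3 higher and 14 lower. In all genes, 6.68% passed as higher and 11.1% as lower in the first comparison, and 5.07% and 7.3% in the second. Between kFRA and DH-LMP2A 5 of the 107 passed, all lower in kFRA (Cd48, Slamf6, Bst1, Ext2 and Hpse), where 3.3% of all genes passed as lower. The median log2 fold change of the 107 genes was −0.364, −0.285 and −0.063 in the 3 comparisons.

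Downstream of the BAFF and APRIL receptors, 3 of 19 genes passed in kFRA against WT and 4 in DH-LMP2A. Map3k14, the kinase NIK of the alternative NF-kB pathway, fell in each, from 24.82 ± 2.33 CPM in WT to 13.71 ± 1.2 in kFRA (SD, n = 3 each, log2 fold change −0.86, edgeR adjusted p = 0.00601) and 14.87 ± 2.34 in DH-LMP2A (−0.74, edgeR adjusted p = 0.0132). Traf3, the adaptor that restrains this kinase, fell as well, by 0.66 and 0.62 on the log2 scale (edgeR adjusted p = 0.0269 and 0.0437). Traf5 rose in kFRA (0.96, edgeR adjusted p = 0.0263), and Nfkb2, a subunit of the pathway, fell in DH-LMP2A (−0.73, edgeR adjusted p = 0.0482), as did Relb. Mcl1, the survival gene downstream of BCMA, was at 437.3 ± 83.6 CPM in WT, compared with 388.1 ± 37.9 in DH-LMP2A and 465.6 ± 56.5 in kFRA (SD, n = 3 each) and did not pass. Of 9 genes of gamma-secretase, which cleaves BCMA from the surface, and of related sheddases, 1 passed in each comparison with WT: Ncstn, a gamma-secretase subunit, rose in DH-LMP2A (0.67, edgeR adjusted p = 0.0182) and Adam17, a sheddase, fell in kFRA (−0.74, edgeR adjusted p = 0.0228). The part of other cells in the values of these lists was not tested.

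Of 16 tested genes listed for signalling by interleukin-6 and other cytokines, 8 passed in kFRA against WT, 1 higher and 7 lower. In DH-LMP2A against WT 7 passed, all lower. Il21r, the receptor of interleukin-21, was at 41.04 ± 8.17 CPM in WT, 12.55 ± 2.28 in kFRA (log2 fold change −1.71, edgeR adjusted p = 0.00365) and 11.11 ± 3.98 in DH-LMP2A (−1.89, edgeR adjusted p = 0.00259; SD, n = 3 each). Lifr, like Il6ra the gene of a partner chain of gp130, was at 3.06 ± 1.02 CPM in WT. It fell by 1.28 and 2.22 on the log2 scale (edgeR adjusted p = 0.0178 and 0.00193). The adaptor Grb2 fell in kFRA (−0.51, edgeR adjusted p = 0.0179). The genes of this list that moved against WT did so mostly opposite in direction to Il6st. A lean to lower was not particular to this list. Of all genes 11.1% passed as lower and 6.68% as higher in kFRA, and 7.3% and 5.07% in DH-LMP2A. Of the 107 genes of all lists, 22 passed as lower and 3 as higher in kFRA, and 14 and 3 in DH-LMP2A. Medians of the markers of other cells went in both directions. In kFRA against WT the median log2 fold change was −0.77 for macrophage, −2.905 for neutrophil, −2.165 for B cell and −1.594 for NK cell markers. It was −0.576 for dendritic cell, −0.526 for endothelial and stromal, −0.027 for T cell and 2.602 for erythroid markers. In DH-LMP2A against WT these medians were −0.784, 0.342, −0.453, 0.147, −0.601, −0.801, 0.682 and 2.948 in the same order. The part of these cells in this list was not tested.

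Among CD28 signalling genes 4 of 13 passed in kFRA against WT and 2 in DH-LMP2A, all lower. They include Icos, a relative of Cd28 at 4.48 ± 1.79 CPM in WT (SD, n = 3), which fell by 1.94 and 1.55 on the log2 scale (edgeR adjusted p = 0.0129 and 0.0347), and Grb2. Of 11 tested genes of the SLAM family and its adaptors 4 passed in kFRA and 1 in DH-LMP2A against WT, all lower, whereas Slamf7 of the same family rose. Cd84 fell in kFRA (−0.79, edgeR adjusted p = 0.0165), and Cd48 was lower in kFRA than in WT (−0.53, edgeR adjusted p = 0.0251) and than in DH-LMP2A (−0.71, edgeR adjusted p = 0.0164). Slamf1 was at 5.4 ± 2.71 CPM in WT and 0.514 ± 0.242 in DH-LMP2A (SD, n = 3 each), and at 0.0913 ± 0.0446 in kFRA, under the floor of 3 counts. Marker sums of other cells differed between the genotypes, and the part of those cells in the CD28 and SLAM lists was not tested.

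Of 11 NAD enzymes around CD38, 3 passed in kFRA against WT and 2 in DH-LMP2A. Nt5e, the ectonucleotidase CD73, fell in each (−2.52 and −1.84, edgeR adjusted p = 0.00748 and 0.0284), and Nmrk1, a nicotinamide riboside kinase, rose in each (0.63 and 0.71, edgeR adjusted p = 0.039 and 0.0302). Bst1, the nearest relative of CD38, was at 5.46 ± 3.49 CPM in WT, compared with 1.36 ± 0.919 in DH-LMP2A and 0.0735 ± 0.0655 in kFRA (SD, n = 3 each), the last under the floor, and passed as lower in kFRA against each. Of 18 genes of syndecans and heparan sulfate synthesis, 2 passed in kFRA against WT, 1 in DH-LMP2A against WT and 2 in kFRA against DH-LMP2A. Ext2, a heparan sulfate polymerase, was at 31.24 ± 3.74 CPM in WT, compared with 70.14 ± 7.08 in DH-LMP2A and 36.35 ± 4.25 in kFRA (SD, n = 3 each), higher in DH-LMP2A than in WT (1.17, edgeR adjusted p = 0.00103) and than in kFRA. Hpse, the enzyme heparanase, was lowest in kFRA (−1.41 against WT, edgeR adjusted p = 0.00113). Among other cells, neutrophils had marker sums of 276.7 to 905.5 CPM in WT, 22.15 to 250.5 in DH-LMP2A and 9.3 to 26.85 in kFRA. The median log2 fold change of these markers was −2.905 in kFRA and 0.342 in DH-LMP2A against WT. The part of neutrophils and other cells in Bst1 and the other genes of these lists was not tested.

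Of the 17 ligands of these receptors 11 were tested, and their counts describe the cells isolated, not the niche. In kFRA against WT 1 passed, Tnfsf13b (BAFF), at 0.937 ± 0.242 CPM in WT (SD, n = 3) and under the floor in kFRA. In DH-LMP2A against WT edgeR passed 0, with 7 at an unadjusted p under 0.05 and 3 by the DESeq2 Wald test. Tnfsf13 (APRIL) was at 3.51 ± 0.756 CPM in WT, compared with 1.46 ± 0.867 in DH-LMP2A and 1.6 ± 0.524 in kFRA (SD, n = 3 each), and Cd86, a ligand of CD28, at 108 ± 42.8, 49.66 ± 25.8 and 41.35 ± 16.3 CPM. Macrophages also make these ligands, and the median log2 fold change of the 8 macrophage and monocyte markers was −0.77 in kFRA and −0.784 in DH-LMP2A. Of the 8, edgeR passed Ly6c2 alone, as higher. In DH-LMP2A against WT 5 of the 8 had an unadjusted p under 0.05 and 3 passed by the DESeq2 Wald test. In kFRA against WT these counts were 1 and 1 for the 8 markers, and 9 and 6 for the 11 ligands. The part of macrophages in the ligand values was not tested.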

How the data were processed

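RNA of CD138-selected spleen plasma cells was sequenced as strand-specific, paired-end poly(A) libraries from 9 mice, per the labels' protocols. The authors deposited raw read counts per gene without normalization, per the file headers; the submitters' processing notes name STAR 2.4.0a, featureCounts (Subread 1.5.0-p3), DESeq2 and mm10/GRCm38. Annotation release, strand setting and the treatment of multi-mapped reads are not given in the sources used here. Exon length comes from the same table.

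The 10 members and all lists (8 of pathway genes, 10 of cell markers) were chosen with earlier results of these data known. Genes were filtered by filterByExpr (14199 of 46958 kept), scaled by TMM and fitted with edgeR 4.0.16 (R 4.3.3) over all 9 libraries with 1 coefficient per genotype. The 3 contrasts were tested by the 2-sided quasi-likelihood F test and adjusted by Benjamini-Hochberg. SE is the log2 fold change divided by the square root of F. Shares and ratios were compared by exact permutation tests (scipy 1.17.1). The model was also run on simulated counts drawn around a common mean profile, and the outcome is not reported here. That simulation held no outlying libraries and no shifts in cell content, so it does not cover those features of the data. No replicate pair agreed within sampling noise (chi-square per degree of freedom 17.3 to 164). Named were the members, up to 3 genes per pathway list and comparison with the smallest p, library descriptors, and the 3 genes best correlated with a member (mean of at least 5 CPM, no immunoglobulin genes). Mcl1, Relb, Tnfsf13, Cd86, Ly6c2 and the other macrophage markers, Cd3e, Cd3d, Cd4 and Ighm were added after their values were seen. One gene that the rule names is not reported here. Alternatives were DESeq2 1.42.0 size factors and Wald test, library size alone, no filter, at least 5 CPM, no immunoglobulin genes, a replicate block, covariates of marker genes or Xist, only the 6 libraries compared, and leaving out each replicate. Intervals and floors cover counting or replicate error only, since reads carry no molecular identifiers.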

Additional observations from a re-analysis of the deposited data

How the results depend on the processing

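Leaving out 1 library at a time moved the number of genes called to between 1271 and 5632 in kFRA against WT (2523 with all libraries), 932 and 1408 in DH-LMP2A against WT (1756) and 352 and 3299 in kFRA against DH-LMP2A (713), the highest numbers with kFRA in the contrast being those without kFRA replicate 2. The members called then numbered 2 to 6, 3 to 4 and 0 to 3. The count in DH-LMP2A against WT was 1094 with a mean of at least 5 CPM and 1013 with the marker covariate, and in kFRA against DH-LMP2A it was 358 with the marker covariate and 1405 by the DESeq2 Wald test. Members called in kFRA against DH-LMP2A were 0 with library size alone and 0 with the marker covariate (edgeR), against 2 by DESeq2 and 3 at an unadjusted p under 0.05 in the fit reported. Library size alone moved the median of all genes to 0.174, 0.334 and −0.136 and the share of calls that were higher from 37.6% to 72% in kFRA and from 41% to 79.9% in DH-LMP2A against WT. Without immunoglobulin genes 47% of the kFRA calls against WT, and without kFRA replicate 2 48.4%, were higher. Without division by length the Tnfrsf17 share differed from WT by −11.229 percentage points in kFRA and −9.622 in DH-LMP2A.

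No call of a member reversed; the sign changes were of differences near 0 that did not pass. In kFRA against WT these were Tnfrsf13b (−0.0501 with the Xist covariate), Cd93 (−0.2028, Xist covariate), Il6ra (0.0053 with DESeq2 size factors, 0.1597 library size alone, 0.0196 without immunoglobulin genes, 0.0036 Xist covariate, 0.0191 only the 6 libraries compared, 0.0051 DESeq2 Wald test) and Cd28 (0.1646 library size alone, 0.0047 without immunoglobulin genes, 0.0032 only the 6 libraries compared). In DH-LMP2A against WT they were Tnfrsf13c (−0.1575, marker covariate) and, with library size alone, Il6ra (0.0402), Cd93 (0.1888) and Cd38 (0.2897). In kFRA against DH-LMP2A they were Tnfrsf13b (0.022, marker covariate), Sdc1 (−0.0634, library size alone) and Cd93 (−0.089, Xist covariate). With 1 library left out the log2 difference in kFRA against WT ran from −0.1273 to 0.2066 for Tnfrsf13b, −0.1366 to 0.1327 for Il6ra, −0.0922 to 0.0278 for Cd28 and −0.1892 to 0.4679 for Cd93. In DH-LMP2A against WT it ran from −0.0651 to 0.1934 for Tnfrsf13b, −0.1112 to 0.1745 for Tnfrsf13c, −0.9543 to 0.3043 for Cd93 and −0.2164 to 0.1193 for Cd38. In kFRA against DH-LMP2A it ran from −0.1309 to 0.1205 for Tnfrsf13b, −0.0135 to 0.2644 for Sdc1 and −0.1147 to 1.1431 for Cd93. The cause was not tested.

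The replicate numbers name different mice and were not used as pairs. Deviations of same-numbered libraries correlated at −0.211 to 0.196, and those of differently numbered libraries at −0.267 to 0.293. With so few libraries these values cannot exclude a pairing by number. With a replicate block 2930, 2067 and 685 genes were called, against 2523, 1756 and 713 without it, and no call of a member changed.

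With 3 mice per genotype, an exact permutation test cannot go below 0.1, and a member that missed the threshold is not shown to be equal. Counting error is small at 230 reads or more per member and library, so the spread between mice limits the precision. Sex, as read from Xist, was uneven over the genotypes, and CD138 selection leaves other cells in the fraction.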
